A study of Homo sapiens with 6 samples.

Results

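The places described here are the 1047 autosomal positions at which MYC binding was strong in all 3 replicates of one chromatin immunoprecipitation sequencing (ChIP-seq) experiment. MYC was immunoprecipitated with the rabbit antibody Y69 from cross-linked chromatin of ONS76, an established human medulloblastoma cell line whose engineered genotype is given as inducible SOX2. The labels name 3 MYC libraries and 3 libraries of normal IgG, a non-specific antibody. The 3 MYC peak lists were analysed, and the IgG libraries were not used here in their own right. Per the study's text, SOX2 was not raised for this experiment, and its methods say that immunoprecipitations from one batch of chromatin were pooled. Nothing read here says that the replicates were separate cultures, so an SD over replicates is the spread between libraries.

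Peaks on chromosomes 1 to 22 sharing at least 1 bp were joined, which gave 27399 places, of which 12368 had a peak in all 3 lists. A place was called strong where each list had a peak with a −log10 p of 50 or more, the p-value being that of the authors' peak caller. The 1047 strong places were 8.47% of the places found in all 3 lists and 3.82% of all autosomal places. The other 11321 places found in all 3 lists served for comparison. The members were therefore chosen by the strength of the MYC signal itself. Fold enrichment, fragment number, width and summit position come from the same signal and are given as descriptions, with no test. Positions are in hg19. The genome and annotation used here are of another build, so genes and sequences at these places are not given.

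MYC is a transcription factor that binds DNA as a dimer with MAX. Its preferred sequence is the E-box, and its peaks are commonly found at the promoters of active genes, among them genes for ribosome assembly, protein synthesis and cell growth. In ChIP-seq, a peak is a stretch where sequenced fragments pile up over the local background, and its summit is the base with the highest pile. The summit is commonly taken as the position nearest to the bound sequence.

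The p-value depends on fragment number and background together, which sets what the threshold of 50 means in each list. At the lowest background of a list, a summit needed at least 79, 70 and 65 fragments in replicates 1, 2 and 3. This corresponds to a fold enrichment of 9.10, 10.4 and 11.5. Where the background was 2 times as high, 105, 93 and 85 fragments were needed, and the fold enrichment at the threshold fell to 6.40, 7.41 and 8.18. The rule thus admitted places of lower fold enrichment where the background was higher.

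The threshold was met most often in replicate 1, which had the highest lowest background of the lists. There, 3156 of the places with a peak (12.9%) reached it, against 1315 (8.2%) in replicate 2 and 1277 (7.75%) in replicate 3. Of all places, 1691 reached 50 in exactly 1 list and 458 in exactly 2. Replicate 1 alone accounted for 1654 of these, replicate 2 alone for 17 and replicate 3 alone for 20. A further 248 places reached it in replicates 1 and 2 and 207 in replicates 1 and 3. Membership was therefore limited almost entirely by replicates 2 and 3.

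Just 3 places reached the threshold in replicates 2 and 3 but not in replicate 1, and they were singled out after their values were seen. On chromosome 2 from 74210821 to 74212180 the −log10 p was 48.8, 76.5 and 77.98 in replicates 1, 2 and 3, with 91, 93 and 88 fragments. It was 46.6, 51.98 and 61.8 at 4362974 to 4363506 on chromosome 19, and 46.4, 57.1 and 54.8 at 105710285 to 105711017 on chromosome 7. In all 3 cases the background relative to the lowest of the list was higher in replicate 1 (1.504, 1.29 and 2.21 times) than in replicate 2 (1.00, 1.05 and 1.41 times).

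The values on both sides of the threshold were close to each other. Just inside, a lowest −log10 p of 50.01 was found at 121427160 to 121427951 on chromosome 10, at 29622954 to 29625418 on chromosome 16 and at 159592044 to 159593093 on chromosome 5. In each of these it was set by replicate 2, where the summit held 70 fragments at a fold enrichment of 10.4. The next were on chromosome 11 from 69458825 to 69459540, at 50.05 in replicate 3, and on chromosome 17 from 66243499 to 66244417, at 50.06 in replicate 2. Just outside, the lowest value was 49.97 at 10399331 to 10401105 on chromosome 19 and 49.95 at 91763034 to 91764364 on chromosome 7. It was 49.94 at 38155794 to 38156438 on chromosome 1, 49.89 on chromosome 7 from 92462047 to 92463809 and also 49.89 on the same chromosome from 104652750 to 104654998. All 5 places just outside failed in replicate 2, and they reached 83.5 to 102 in replicate 1.

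Among the strong places, median fold enrichment was 15.2, 13.3 and 14.5 in replicates 1, 2 and 3. Their mean was 14.3 ± 0.952 (SD, n = 3). At the other places it was 5.59, 4.87 and 5.25 (mean 5.24 ± 0.360, SD, n = 3). The ratio of these medians was 2.72, 2.73 and 2.75 and so was nearly the same in each library. The median summit of a strong place held 170, 104 and 95 fragments, against 60, 37 and 34 at the other places. Fold enrichment of the members ran from 4.90 to 58.4 in replicate 1, from 5.70 to 54.6 in replicate 2 and from 6.31 to 64.9 in replicate 3. It overlapped with the other places, which reached 20.2, 14.6 and 15.5. A fold enrichment of 10 or more in all 3 replicates was found at 901 strong places (86.1%) and at 103 others (0.910%).

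**Figure D1:**
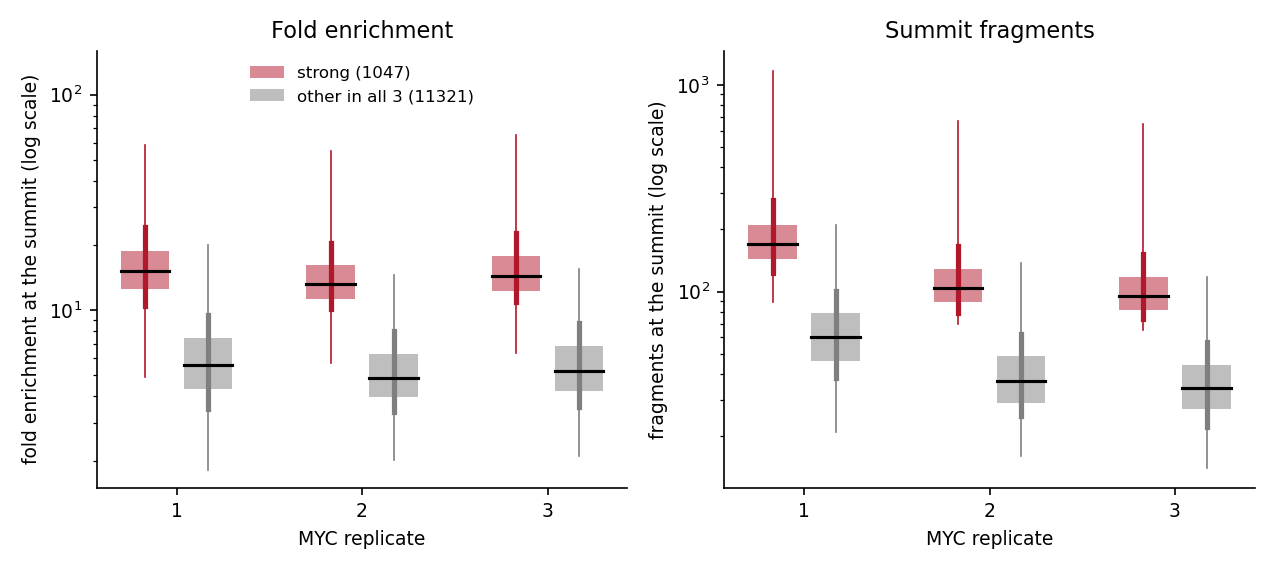
Fold enrichment (left) and number of fragments (right) at the summit of the strongest peak of each place, both on log scales, for each MYC replicate. Black lines are medians, boxes the middle 50% of places, thick lines the 10th to 90th percentile and thin lines the full range. Median fold enrichment of strong places is 15.2, 13.3 and 14.5 in replicates 1, 2 and 3, and the full ranges of strong and other places overlap.

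Members were also described by the share of fragments they held. Strong places held 23.1%, 23.2% and 23.1% of all summit fragments above background at places found in all 3 lists. The mean was 23.2% ± 0.0508 (SD, n = 3), and they were 8.47% of those places by number. A larger share of fragments than of places follows from the choice by strength. Within the members the geometric mean fold enrichment had a median of 14.2 and a range of 6.02 to 58.3. It exceeded 20 in each replicate at 101 places (9.65%) and 30 in each replicate at 16. A −log10 p of 100 or more was reached by 81.4% of the members in replicate 1, by 31.5% in replicate 2 and by 29.7% in replicate 3. Of the 100 members with the highest fold enrichment in each list, 65 were the same in all 3 lists, and 140 were in at least 1.

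By geometric mean fold enrichment, the 8 strongest places lay on 5 chromosomes. The first, on chromosome 20 from 17948391 to 17950781, had a fold enrichment of 55.98, 54.6 and 64.9 in replicates 1, 2 and 3. Each replicate had 1 peak there, between 1833 bp and 2391 bp wide. The second was on chromosome 17 from 61850641 to 61851822, with 58.4, 41.7 and 49.8. It was followed by chromosome 7 from 4681033 to 4682213, with 55.6, 40.8 and 48.0, and by chromosome 7 from 99697890 to 99699975, with 38.9, 40.7 and 48.2. The latter was the only one of the 8 that was lowest in replicate 1.

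The remaining 4 were close to one another in strength. The place from 42085823 to 42087352 on chromosome 20 had a fold enrichment of 42.2 ± 6.57, and that from 49230547 to 49231651 on chromosome 17 had 41.7 ± 2.90 (SD, n = 3). They were followed at 41.6 ± 2.27 by 154133985 to 154135527 on chromosome 5 and at 41.1 ± 6.15 by 91932936 to 91934705 on chromosome 9 (SD, n = 3). The means of these 4 differed by less than the SD of any of them. Compared within each replicate, 16 of the 28 pairs among the 8 places kept one order throughout the 3 lists. The summits of each of the 8 lay within 37 bp of one another, and the nearest other strong place was between 13141 bp and 3036280 bp away.

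**Figure D2:**
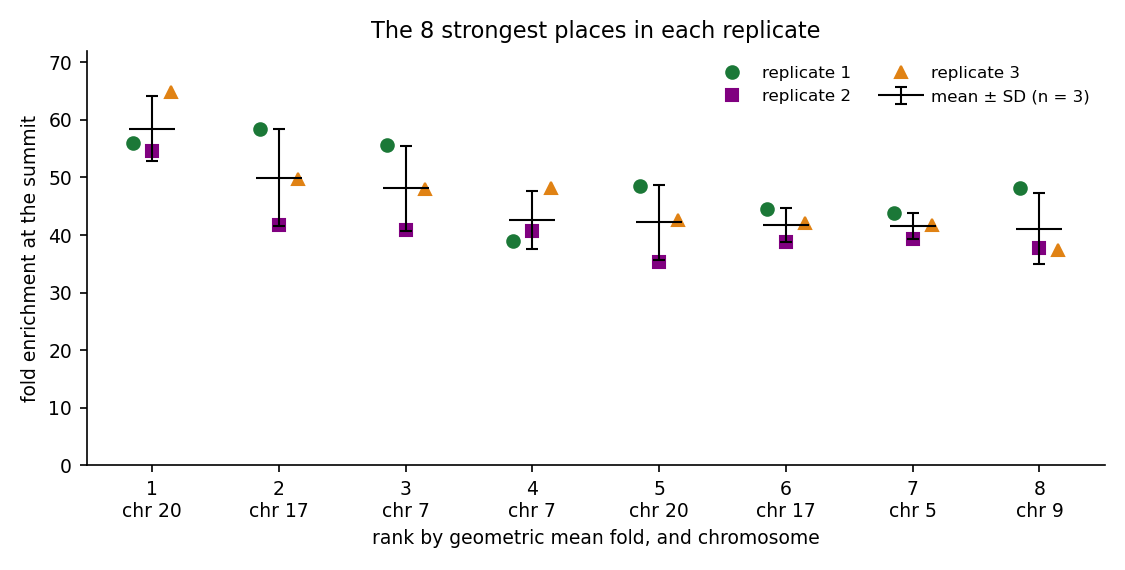
Fold enrichment at the summit in each replicate for the 8 strong places with the highest geometric mean. Symbols are replicates, and the black dash and bar give the mean ± SD (n = 3). The place ranked first lies at 54.6 to 64.9, and ranks 5 to 8 overlap, with means of 41.1 to 42.2.

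Strong places were wider than the others. The strongest peak of a member had a median width of 1104 bp in replicate 1, 863 bp in replicate 2 and 891 bp in replicate 3, against 704 bp, 492 bp and 502 bp. The ratio was 1.57, 1.75 and 1.77 (mean 1.699 ± 0.114, SD, n = 3) and was above 1 in each replicate. Merged over the lists, members had a median width of 1163 bp and a middle range of 879 bp to 1520 bp, against 762 bp and 558 bp to 1062 bp. Only 7 members (0.669%) were narrower than 500 bp, compared with 17.6% of the others, and 87 (8.31%) were 2000 bp or wider, compared with 2.11%. Together the members covered 1313 kb. Their extremes were not outside those of the rest, since the widest of the other places measured 4916 bp.

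Few places were made of several called peaks. At 943 members (90.1%) each list had exactly 1 peak, close to the 92.6% of the other places. A member had more than 1 peak in 0.955%, 5.73% and 6.59% of cases in replicates 1, 2 and 3. At the other places the shares were 0.892%, 4.36% and 4.58%. The summit lay in the middle 50% of the peak in 85.3%, 83.7% and 83.6% of members, against 82.4%, 80.2% and 79.8% of the others. The 3 widest spanned 4004 bp (20401104 to 20405107, chromosome 6), 3902 bp (43451277 to 43455178, chromosome 2) and 3386 bp (4320882 to 4324267, chromosome 16). Their fold enrichment was 17.2 ± 3.44, 24.7 ± 5.49 and 25.6 ± 3.23 (SD, n = 3), all above the median of the members. The place on chromosome 6 was split into 2 peaks in replicates 2 and 3, whereas that on chromosome 2 was 1 peak in each list, 3229 bp to 3902 bp wide, with its 3 summits within 6 bp.

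Although their peaks were wider, the summits of strong places were closer together. Between pairs of replicates the summits of a member were a median of 15, 16 and 15 bp apart (replicates 1 and 2, 1 and 3, 2 and 3), against 35, 36 and 38 bp at the other places. The ratio was 0.429, 0.444 and 0.395, a mean of 0.423 ± 0.0254 (SD over 3 pairs). As a share of peak width, the distance was 1.55% ± 0.118 at the members and 6.43% ± 0.980 at the others (SD over 3 pairs). All 3 summits of a place lay within 50 bp at 853 members (81.5%) and at 40.7% of the others, and within 10 bp at 152 members (14.5%) and at 3.82% of the others. At 1 member the 3 summits were on the same base.

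The edges of the peaks did not show a difference as large. Starts differed between replicates by a median of 65.0 ± 20.1 bp at the members and 70.7 ± 14.4 bp at the others, and ends by 70.0 ± 15.6 bp and 70.7 ± 14.5 bp (SD over 3 pairs). Pair by pair (replicates 1 and 2, 1 and 3, 2 and 3), starts differed by 74, 79 and 42 bp at the members. At the others they differed by 79, 79 and 54 bp. Ends differed by 79, 79 and 52 bp at the members and by 78, 80 and 54 bp at the others. The shared part of both peaks was 83.4% ± 3.02 of their joint extent at the members and 73.0% ± 3.01 at the others (SD over 3 pairs).

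A small number of members had summits far apart. The range of the 3 summits exceeded 500 bp at 20 members (1.91%), against 5.53% of the others. At 19 of the 20 members, 2 of the summits lay within 100 bp of each other. Over all 20, the summit farthest from the others was that of replicate 1 at 6 places, replicate 2 at 5 and replicate 3 at 9. The merged places were 1254 bp to 2488 bp wide, and at 18 of them each list had called only 1 peak. The largest range, 1140 bp, was on chromosome 1 from 8937817 to 8939798. There the summits of replicates 1 and 2 were at 8938235 and 8938193 and that of replicate 3 was at 8939333, while fold enrichment was 24.8, 22.5 and 20.9. The next were on chromosome 17 from 49336416 to 49338835 (1137 bp) and on chromosome 7 from 551237 to 552993 (1123 bp), and replicate 3 also differed in both.

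**Figure D3:**
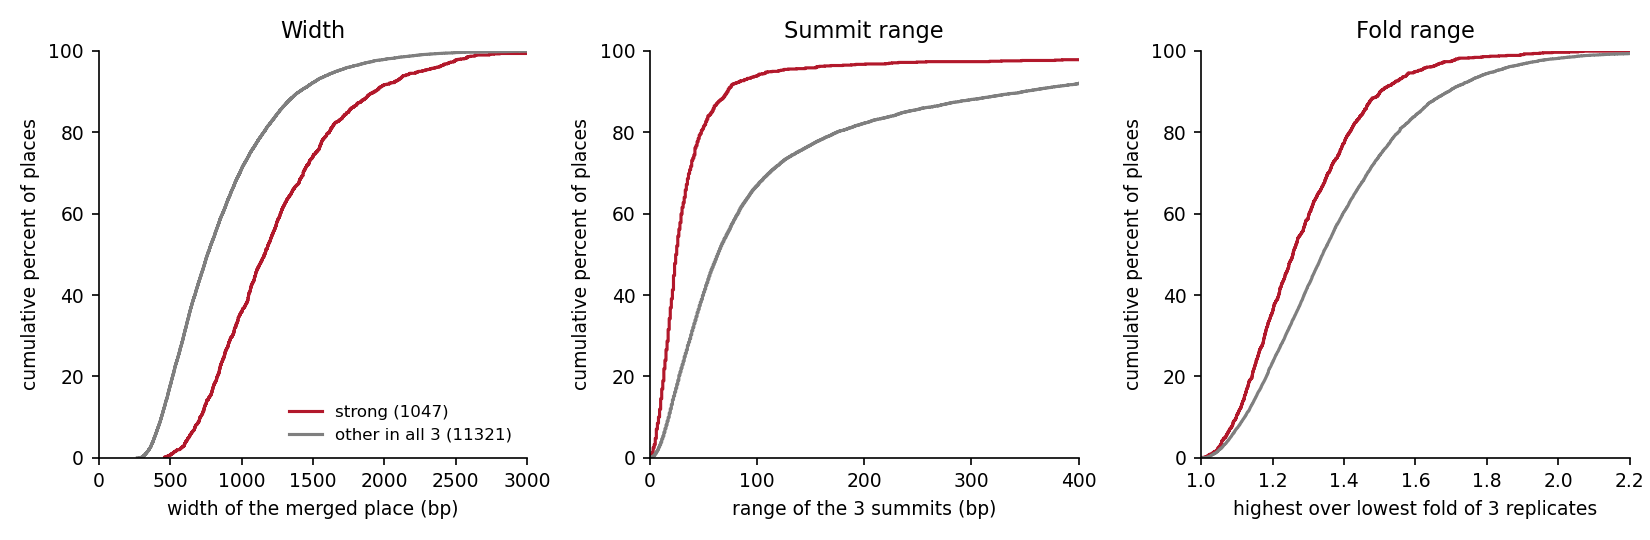
Cumulative percent of strong places and of the other places found in all 3 lists, by the width of the merged place in bp (left), by the range of the 3 summits in bp (middle) and by the highest over the lowest fold enrichment of the 3 replicates (right). The horizontal axes end before the longest values. Strong places are wider (median 1163 bp against 762 bp), have closer summits (25 bp against 63 bp) and a smaller fold range (1.26 against 1.34).

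Fold enrichment also varied less between replicates at the members, before counting error was considered. The highest of the 3 values was a median of 1.26 times the lowest, against 1.34 at the other places. It was over 1.5 times at 108 members (10.3%) and 25.7% of the others, and over 2 times at 4 members (0.382%) and 1.85% of the others. After subtraction of the median log2 ratio of each pair of libraries over all places found in the 3 lists, the absolute log2 difference of a member had a median of 0.19 for replicates 1 and 2, 0.20 for replicates 1 and 3 and 0.14 for replicates 2 and 3. At the other places the medians were 0.25, 0.25 and 0.21. The ratio was 0.742 ± 0.0710 (SD over 3 pairs). The threshold in each list removes places that are low in any replicate, and the part of this in the smaller range was not tested.

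The spread was then set against what the counting of fragments alone would give. For the fragment numbers of the members, counting error corresponds to a median absolute log2 difference of 0.12, 0.12 and 0.14 for the same pairs. The observed values were thus above counting error in both pairs with replicate 1 and close to it between replicates 2 and 3. At the other places counting error was larger, at 0.20, 0.21 and 0.23, against observed medians of 0.25, 0.25 and 0.21. Both the observed differences and the counting error were smaller at the members, and the part of the one in the other was not tested. More than 2 counting standard errors separated the replicates at 21.7%, 20.7% and 7.64% of the members, compared with 9.94%, 9.73% and 3.73% of the other places, which had fewer fragments. Across the members, the fold enrichment of pairs of libraries had a Spearman's rho of 0.752, 0.756 and 0.798 (n = 1047 places, which share libraries and background and are not independent replicates). Across the others rho was about the same, at 0.753, 0.748 and 0.770.

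The libraries did not share one order at all members. Replicate 1 had the highest fold enrichment at 560 members (53.5%), replicate 3 at 364 (34.8%) and replicate 2 at 123 (11.7%). Replicate 2 was the lowest at 612 members (58.5%). The median fold of replicate 1 was 1.13 times that of replicate 2 and 1.04 times that of replicate 3, and replicate 2 had 0.917 times the fold of replicate 3, all taken place by place.

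The largest disagreement was between 50807293 and 50809175 on chromosome 20, where fold enrichment was 4.90, 7.97 and 11.3 in replicates 1, 2 and 3 and the summits were up to 618 bp apart. In replicate 1 the relative background at this summit was 4.07, against 1.83 and 1.65 in the other lists. The summits held 159, 92 and 99 fragments. These numbers are not scaled between lists, and the median member held 170, 104 and 95. At 145826316 to 145827746 on chromosome 5 fold enrichment was 11.6, 17.7 and 8.55, and at 80451222 to 80453025 on chromosome 17 it was 14.98, 7.29 and 10.7. In both, the replicate with the highest fold had the lowest relative background. The closest agreement was on chromosome 11 from 3818054 to 3819718, at 14.99, 14.9 and 14.9. It was nearly as close on chromosome 21 from 45145545 to 45146071 (12.97, 12.9 and 12.9) and on chromosome 12 from 122326331 to 122326979 (13.6, 13.4 and 13.5). At these 3 places every value was between 12.9 and 14.99, near the medians of the members.

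Within the members, summits were closer at stronger places. From the weakest to the strongest of 4 groups of 261 or 262 members, with median fold enrichment of 11.1, 13.1, 15.3 and 20.9, the median range of the summits was 30, 27, 24 and 20 bp. The median width of the merged place was 1090, 1125, 1150 and 1266 bp. The median fold range was 1.21, 1.27, 1.28 and 1.27. The 4 groups also differed in median relative background (1.41, 1.14, 1.15 and 1.13) and in places on chromosome 20 (54, 7, 9 and 16). The part of these in the values above was not tested. Spearman's rho with geometric mean fold enrichment was 0.162 for width, −0.224 for summit range and 0.0898 for fold range (n = 1047 places). Strong and other places were also set side by side within 1 band of fold enrichment. Between a geometric mean of 10 and 12 there were 179 strong places and 380 others. They were not matched: median fold enrichment was 11.3 and 10.7, and median relative background 1.36 and 1.06. Their median widths were 1068 bp and 1029 bp, their median summit ranges 28 bp and 35 bp, and their median fold ranges 1.21 and 1.36. The rule removes places low in any list, and its part in the smaller fold range was not tested. The strong places of this band had 139, 88 and 81 fragments at the median summit and the others 117, 68 and 62.

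Most strong places had no other strong place within 100 kb, but members were only 8.47% of the places found in all 3 lists. The part of their small number in this was not tested. Where the nearest place of any strength lay within 10 kb, it was strong for 32 of 273 members (11.7%; 95% interval 8.16% to 16.1%). For the others it was strong at 240 of 3155 (7.61%; 6.71% to 8.59%), and the intervals overlap. The share of strong places also differed between chromosomes, and the part of this was not tested. The nearest other strong place was a median of 313.4 kb away, with a middle range of 88.6 kb to 1069 kb. Another strong place lay within 10 kb of 38 members (3.63%), within 100 kb of 282 (26.9%) and beyond 1000 kb of 278 (26.6%). The 38 formed 19 pairs, and no 3 members followed each other at gaps of 10 kb or less. At gaps of up to 100 kb there were 92 pairs and 30 longer runs, the longest with 6 members. The closest pair of summits was 1109 bp apart. The tightest run of 3 was on chromosome 20 and spanned 25041 bp between its outer summits. It was made of the places from 25203299 to 25204201, from 25207444 to 25208549 and from 25227909 to 25229669. Their fold enrichment was 10.4 ± 0.944, 17.5 ± 1.55 and 8.15 ± 0.5004 (SD, n = 3), and their relative background was between 2.002 and 2.40 in each replicate.

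Spacing was compared with the other places by the distance to the nearest place of any strength found in all 3 lists. The median was 25.03 kb for the members and 27.7 kb for the others. The curves crossed. Within 5 kb of a member there was such a neighbour in 14.6% of cases (95% exact binomial interval 12.5% to 16.9%), against 17.7% (17.04% to 18.5%) for the others. Within 10 kb the shares were 26.1% (23.4% to 28.8%) and 27.9% (27.0% to 28.7%), which was not a detectable difference. Within 50 kb the order was reversed, at 68.1% (65.2% to 70.9%) and 64.8% (63.9% to 65.7%), but the intervals overlapped here too. These intervals cover counting error only, and neighbouring places are not independent. Strong places were wider, and peaks that overlap are merged, so a wide place leaves less room for a near neighbour; the part of this was not tested. The nearest neighbour was itself strong at 119 members (11.4%; 9.51% to 13.4%) and at 943 of the others (8.33%; 7.83% to 8.85%). The part of the unequal shares of strong places between chromosomes in this was not tested.

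**Figure D4:**
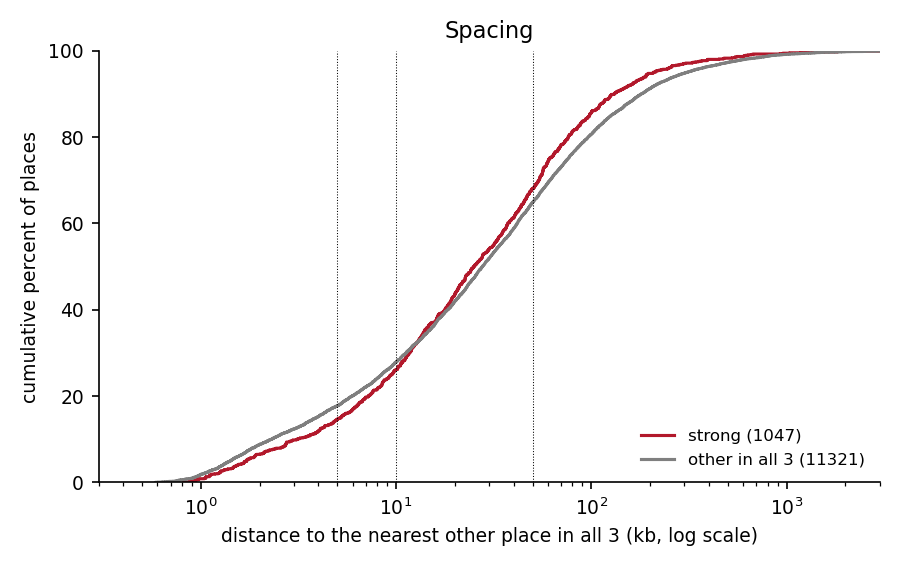
Cumulative percent of strong places and of the other places found in all 3 lists, by the distance from the median summit to that of the nearest other place found in all 3 (kb, log scale). Dotted lines mark 5, 10 and 50 kb. Strong places are below the others at 5 kb (14.6% against 17.7%) and above them at 50 kb (68.1% against 64.8%).

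By number, chromosome 1 had the most members (139, or 9.24% of its places found in all 3 lists). It was followed by chromosomes 7 (90), 20 (86), 17 (83, or 9.17%) and 19 (72, or 9.54%). The share of the places found in all 3 lists that were strong was read against 8.47% over all autosomes. It was highest on chromosome 20, at 14.1% of 609 places (95% exact binomial interval 11.5% to 17.1%), and next highest on chromosome 7, at 11.1% of 813 places (8.996% to 13.4%). It was lowest on chromosome 15, at 3.42% of 292 places (1.65% to 6.21%), followed by chromosome 22 at 5.08% of 315 (2.93% to 8.12%) and chromosome 14 at 5.35% of 318 (3.14% to 8.42%). The intervals of these 5 chromosomes did not include 8.47%, whereas those of the other 17 did. On chromosome 14 the upper limit was only just below it. The intervals cover counting error only and were not adjusted for the number of autosomes. Places that share libraries and background are not independent, so this is a description. Chromosome 20 held 4.92% of the places found in all 3 lists and 8.21% of the strong ones. Along the chromosomes, 46 of 287 parts of 10 Mb held 50% of the members and 52 parts held none. These counts were not adjusted for how many places of any strength each part held. The part with the most was on chromosome 17 from 70000001 to 80000000. Its 24 members among 243 places were a share of 9.88%, near the 8.47% over all autosomes.

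On chromosomes 20 and 7 the background recovered from the MYC peak lists was also high. Which library it was taken from could not be read. Relative background is the background at a summit divided by the lowest of the same list. Its median over places found in all 3 lists was 1.96 ± 0.122 on chromosome 20, 1.51 ± 0.0854 on chromosome 7 and 1.00 on chromosomes 15, 22 and 14 (SD, n = 3). Chromosome 21, with 10.1% strong (5.48% to 16.6%), was also at 1.00. Across the 22 autosomes, the share of strong places and the relative background had a Pearson's r of 0.815 and a Spearman's rho of 0.715. Without chromosome 20 these were 0.690 and 0.673 (n = 21). The 22 points share the same 3 libraries, and background enters the p-value by which places were chosen. Median fold enrichment of all shared places had a rho of −0.185 with the share of strong places.

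At like fold enrichment, chromosome 20 met the threshold more often. At a given fold enrichment −log10 p rises with background, so this direction was built into the rule. The cause of the high share on chromosome 20 was not tested. Among places with a geometric mean fold enrichment of 8 to 10, 27 of 37 (73.0%) were strong on chromosome 20, 7 of 68 (10.3%) on chromosome 7 and 14 of 1057 (1.32%) on the other autosomes. From 10 to 12 these shares were 100% of 22, 53.5% of 43 and 27.1% of 494. From 15 to 20 every place was strong on all of them. When the same number of peaks was instead taken from each list by fold enrichment, 5.91% of the places on chromosome 20 were strong in all 3 lists, against 7.14% over all autosomes. It then ranked 19 of 22, and chromosome 21 ranked first with 9.30%. Chromosome 15 ranked last under both rules. Of the 1047 members, 825 (78.8%) were also strong by fold enrichment, and they made up 93.4% of the 883 places so chosen. The strong places on chromosome 20 had a median fold enrichment of 11.4 ± 0.584 (SD, n = 3), the lowest of any autosome, and 54 of the 86 were in the weakest of the 4 groups. Yet 2 of the 8 strongest places were on this chromosome.

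**Figure D5:**
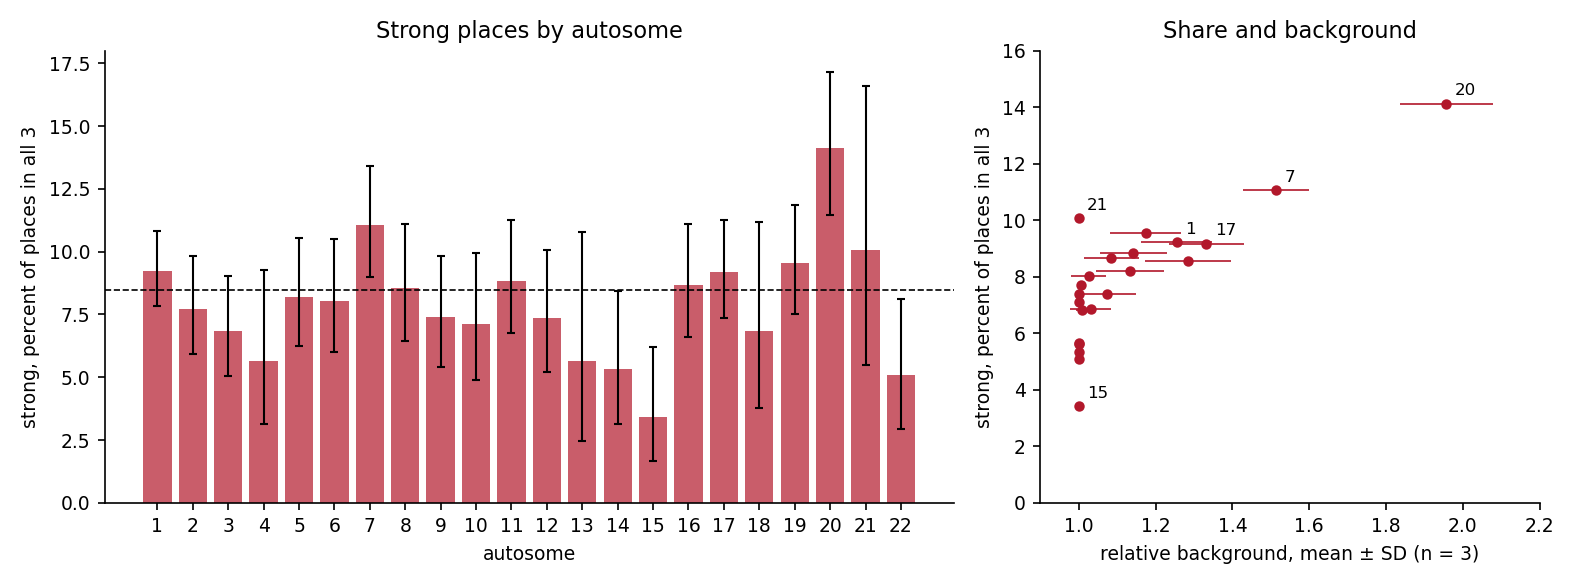
Left, strong places as a percent of the places found in all 3 lists on each autosome, with 95% exact binomial intervals; the dashed line is the value over all autosomes, 8.47%. Right, the same percent against the median relative background of the places of that chromosome, mean ± SD over 3 replicates. Chromosomes 20 (14.1%) and 7 (11.1%) have the highest shares and the highest backgrounds (1.96 and 1.51).

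Taken over all autosomes, the relative background was slightly higher at strong places. Its median was 1.31, 1.11 and 1.12 in replicates 1, 2 and 3, against 1.19, 1.04 and 1.06 at the others. The ratio was 1.099, 1.06 and 1.06, a mean of 1.07 ± 0.0230 (SD, n = 3). Without chromosomes 7 and 20 it was 1.04. The background was at the lowest level of the list at 17.3%, 32.0% and 32.3% of members, and at 26.4%, 41.97% and 39.9% of the others. At 17 members (1.62%) it was at least 2 times that level in all 3 replicates, compared with 1.13% of the others, and 13 of the 17 were on chromosome 20. The highest was on chromosome 1 from 144009736 to 144010477, with a relative background of 4.24, 3.72 and 4.15 and a fold enrichment of 10.6, 9.55 and 7.80 on 361, 216 and 161 fragments. It was followed by chromosome 1 from 16950365 to 16951218, with a relative background of 3.602 ± 0.306 (SD, n = 3). On chromosome 20 from 23617847 to 23618762 it was 3.40 ± 0.174 (SD, n = 3). Fold enrichment at the latter places was 6.25 ± 0.484 and 6.02 ± 0.250 (SD, n = 3), with the lowest geometric means of all members.

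Finally, strength in a library was read at places chosen without it. Of the 1050 places that reached the threshold in replicates 2 and 3, 99.7% also reached it in replicate 1 (95% exact binomial interval 99.2% to 99.9%). Of the 1254 chosen by replicates 1 and 3, 83.5% (81.3% to 85.5%) reached it in replicate 2, and of the 1295 chosen by replicates 1 and 2, 80.8% (78.6% to 82.96%) reached it in replicate 3. The mean was 88.0% ± 10.2 (SD, n = 3). All 3 shares count the same 1047 strong places and restate the threshold counts above. They are thus linked, and neither the SD nor the intervals rest on independent values. Among all places with a peak in the list, 12.9%, 8.2% and 7.75% reached the threshold in replicates 1, 2 and 3. Every one of the places chosen by 2 lists had a peak in the list left aside. Their median fold enrichment there was 15.2, 12.4 and 13.4 in replicates 1, 2 and 3, against 5.59, 4.82 and 5.21 at the remaining places found in all 3. The median −log10 p of those below 50 was 42.4 in replicate 2 and 42.7 in replicate 3, and 82 of 207 and 85 of 248 were under 40. When the same number of peaks was taken from each list by −log10 p, the shares were 89.9%, 91.5% and 90.8% in replicates 1, 2 and 3 (mean 90.7%). Chosen by replicate 1 alone at the threshold of 50, 41.0% of places reached it in replicate 2 and 39.7% in replicate 3.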

How the data were processed

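The authors mapped the reads of each library to hg19 (Bowtie2) and used MACS2 on every library by itself, with a q-value of 0.05 as the limit. Versions, the control library and the handling of duplicate reads could not be read from the sources. For each peak the deposited file lists position, summit, a fold enrichment (a ratio to the local background, 1 being added above and below the line), a −log10 p, a −log10 q and a score derived from the last of these. They were not scaled between replicates.

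Groups and replicate numbers came from the labels. Autosomal peaks overlapping by at least 1 bp were merged, and the peak with the highest −log10 p represented a list at each place. Fragments and background at the summit were recovered from fold enrichment and −log10 p, assuming a Poisson model. A whole number of fragments matched within 0.001 for 100% of peaks. The lists give no read totals; the lowest background was 7.79, 5.84 and 4.76 fragments. Steps were tested on simulated data. Calculations used Python 3.11.15, pandas 2.3.3 and scipy 1.17.1.

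The rule, the comparisons and the named places were chosen with earlier results of these data known. Named were the 8 strongest members, the 3 extremes of fold range in each direction, of width, of summit range and of background, the tightest run of 3 and the 5 places on either side of the threshold. Places on chromosome 8 were counted but not named. The planned account of genes and sequences was not run, because the genome used here is hg38. Other settings tried were thresholds of 40 and 75, −log10 q, equal numbers of peaks, a q-value of 0.001, stricter overlap, leaving out each replicate and adding chromosome X.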

Additional observations from a re-analysis of the deposited data

Results flagged for a closer look

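Chromosome X was outside the rule for members. Of its 131 places found in all 3 lists, 5 reached a −log10 p of 50 in each list, a share of 3.82% (95% exact binomial interval 1.25% to 8.68%). A count of 0 would have allowed up to 2.29%. The share was not tested against that of the autosomes. It was listed because these peaks belong to no comparison above.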

How the results depend on the processing

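No paired analysis was possible because every value rests on MYC peaks, and the IgG samples that carry the same replicate numbers enter none of them. Removal of chromosomes 7 and 20 was chosen after the chromosome shares were seen. Of 106 values under 16 settings, 77 moved by no more than the limit set for that value: 1 SD over replicates or pairs, the 95% binomial interval for the chromosome share, and 1.5 times for the number of strong places.

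The number of strong places was 507 at a threshold of 75, and otherwise 871 to 1519, with 1050 to 1295 when a replicate was left out. Leaving out a replicate gave a width ratio of 1.78 to 1.83, a summit ratio of 0.395 to 0.444, a fold range ratio of 0.659 to 0.832 and a held-out share of 69.0% to 81.0%. The lower means, without replicate 2 or 3, join unlike values: 98.2% and 98.5% in replicate 1, against 39.7% in replicate 3 and 41.0% in replicate 2 for places chosen by replicate 1 alone. The summit ratio was 0.382 at a threshold of 75 and 0.506 when summits had to lie within 200 bp, which limits the distance by construction. Spacing, as the share of strong over other places with a neighbour within 10 kb, was 0.939. It was 0.918 and 0.893 at thresholds of 40 and 75, 0.927 by −log10 q, 0.930 and 0.874 with equal numbers by −log10 p and by fold enrichment, 0.949 at a q-value of 0.001, 0.960 with reciprocal overlap, 0.945 with near summits, 0.913 to 0.929 without a replicate and 0.934 without chromosomes 7 and 20. It was 0.823 within 5 kb and reversed to 1.05 within 50 kb, and the cause was not tested. The background ratio of 1.07 was 1.05 at a threshold of 40, 1.04 without chromosomes 7 and 20, and reversed to 0.994 with equal numbers by fold enrichment; the cause was not tested. The share on chromosome 20 was 18.4% and 7.22% at thresholds of 40 and 75, against 12.3% and 4.10% over all autosomes, and 5.91% by fold enrichment, against 7.14%. Of the 458 places that missed the rule in 1 list, 207 missed it in replicate 2 and 248 in replicate 3; the cause was not tested. Genes and sequences, with their alternatives of window size, were not run.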
